A study of Mus musculus with 4 samples.

Results

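Of 34094 open regions that lay away from transcript starts on the 19 autosomes of mouse embryonic stem cells (ESCs), 9251 (27.1%) were dominated by repeated DNA. An open region was the union of overlapping ATAC-seq peaks from 4 control libraries, joined when they shared at least 1 bp, and 50704 such regions lay on the autosomes. A region was kept when no GENCODE vM21 transcript start came within 1 kb of it. It was called repeat-dominated when at least 50% of its bases were soft-masked, that is, written in lower case as repeats in the mm10 reference. The other 24843 regions away from starts, with less than 50% of their bases masked, are called mostly unique below.

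ATAC-seq reads open chromatin through a transposase that inserts sequencing adapters into accessible DNA, and peaks are the intervals in which insertions pile up. All 4 libraries came from E14 cells, a mouse ESC line grown in serum with LIF, infected with a pLKO lentivirus that expressed a short hairpin RNA, selected with puromycin for 2 days and harvested 2 days later. There was 1 library with a hairpin against GFP (shGFP) and there were 3 libraries with a hairpin against luciferase (shLuc replicates 1, 2 and 3). Neither target is a mouse gene, so the comparison of the hairpins asked how far control libraries differ, and libraries with a hairpin against a chromatin modifier were not analysed here. The labels do not say whether the shLuc replicates were separate infections, so the spread between them may be technical. With 1 library against 3, an exact permutation test could not go below p = 0.25, so differences were set against the standard deviation (SD) of the shLuc libraries.

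The lists held 17860 to 41943 peaks as positions only, so they give neither the number of reads behind a peak nor its height. shLuc replicate 1 stood apart with the shortest list, and the sample table of the study gives it the fewest reads. A peak within 1 kb of a start was found in all 4 libraries for Zfp42, an ESC marker, and in 2 libraries for Esrrb and Klf4. No library had a peak at the starts of Pou5f1, Nanog or Sox2, which define this cell type. Of the markers of other cell types, Gata4, Alb and Hba-a1 had no such peak, Myod1 had it in 1 library and Sox17 in 4.

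Transposable elements (TEs) are mobile DNA that fills much of the mouse genome in many near-identical copies. Long interspersed elements (LINEs) carry their own promoter at the 5′ end, followed by the reading frames ORF1 and ORF2, and in mouse the promoter of young LINEs is built of short units repeated head to tail. Endogenous retroviruses carry their promoters in long terminal repeats (LTRs). ESCs hold most TEs silent through histone methylation, DNA methylation and zinc-finger proteins, and yet some copies stay accessible and act as regulatory elements.

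The sequences that the repeat-dominated regions shared are given first, because they carry the main pattern. Every run of 50 bases in a region, called a word here, was counted in all regions on both strands. The 5 words below were the word found in most repeat-dominated regions and the next 4 words that shared no region with an earlier one. They are written 5′ to 3′ as on the forward strand of mm10, in lower case throughout, at the first region that held each.
word 1, intergenic, chr1:4559752-4559801: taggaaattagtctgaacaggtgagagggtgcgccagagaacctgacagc
word 2, in an intron, chr1:4085440-4085489: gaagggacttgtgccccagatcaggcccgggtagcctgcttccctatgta
word 3, intergenic, chr1:5189717-5189766: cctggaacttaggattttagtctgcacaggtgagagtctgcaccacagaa
word 4, intergenic, chr1:14975381-14975430: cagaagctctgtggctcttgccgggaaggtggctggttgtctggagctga
word 5, in an intron, chr1:3308107-3308156: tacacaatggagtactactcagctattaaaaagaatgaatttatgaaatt

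Word 1 was held by 1383 repeat-dominated regions, or 15.0%, and word 2 by another 1245 (13.5%). Words 3, 4 and 5 were held by 329, 254 and 131 regions. Word 1 occurred 4896 times in the genome, and 3630 (74.1%) of these copies lay inside repeat-dominated regions. Word 2 occurred 4146 times, and 74.4% of its copies lay in repeat-dominated regions. Word 5 differed from these, because only 0.907% of its 21164 copies lay in such a region. Copies were counted on 21 chromosomes, X and Y included, whereas repeat-dominated regions were autosomal. Copies on X and Y thus lower these shares. In the mostly unique regions, word 1 was found in 1 region and word 2 in none. The words were chosen for being common in repeat-dominated regions, so this contrast largely follows from the choice.

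A stretch of 300 bases from the middle of an intergenic region that was open in all 4 libraries shows word 1 in place. The region was the widest of those with word 1 near the midpoint, it spanned 4907 bp at chr8:52303728-52308634, and the nearest start, of Gm6463, was 24257 bp away. Its widest peak was 4871 bp in shGFP and 4618, 4892 and 4861 bp in shLuc replicates 1, 2 and 3. Capitals mark word 1 at bases 118 to 167 and, at bases 89 to 97, the letters AAGATGGCG on the opposite strand, which are a core of the site of the zinc-finger protein YY1.
word 1 region, chr8:52306031-52306330, forward strand: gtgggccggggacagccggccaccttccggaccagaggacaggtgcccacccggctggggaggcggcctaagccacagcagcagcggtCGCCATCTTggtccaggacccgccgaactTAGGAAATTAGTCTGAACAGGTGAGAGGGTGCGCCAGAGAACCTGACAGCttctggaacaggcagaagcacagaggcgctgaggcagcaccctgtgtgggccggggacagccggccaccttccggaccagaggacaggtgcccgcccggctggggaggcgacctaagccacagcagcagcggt

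Not all regions were of this kind. The 2 stretches below come from regions that were open in all 4 libraries and in which at most 10% of the 50-base words occurred more than once in the genome. They are the widest such region in an intron, in Ptprd, a receptor tyrosine phosphatase gene, and the widest in intergenic sequence, 18431 bp from the start of Vmn1r-ps2. Here capitals mark the bases that are not soft-masked, so that the short masked blocks can be seen in lower case.
Ptprd intron region, chr4:77310284-77310583, forward strand: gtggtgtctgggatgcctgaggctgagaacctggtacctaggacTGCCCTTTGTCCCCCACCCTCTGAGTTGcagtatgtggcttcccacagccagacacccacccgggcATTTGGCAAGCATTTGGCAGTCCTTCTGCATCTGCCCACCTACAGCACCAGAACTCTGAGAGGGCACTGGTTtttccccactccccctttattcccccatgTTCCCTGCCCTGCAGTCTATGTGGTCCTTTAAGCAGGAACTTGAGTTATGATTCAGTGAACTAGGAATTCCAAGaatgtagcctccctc
intergenic region near Vmn1r-ps2, chr4:3083171-3083470, forward strand: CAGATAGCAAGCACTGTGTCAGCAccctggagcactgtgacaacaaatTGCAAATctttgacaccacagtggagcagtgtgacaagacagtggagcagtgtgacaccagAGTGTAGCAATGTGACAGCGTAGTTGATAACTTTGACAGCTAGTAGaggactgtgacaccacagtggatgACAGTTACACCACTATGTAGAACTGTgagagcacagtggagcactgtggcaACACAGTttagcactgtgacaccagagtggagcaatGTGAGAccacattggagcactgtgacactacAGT

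The Ptprd region was 1297 bp wide and 57.4% masked, with 1.36% of its words repeated and no masked block longer than 139 bp. Its widest peak was 1256 bp in shGFP, with 405, 1208 and 1236 bp for shLuc, lowest in shLuc replicate 1. The Vmn1r-ps2 region was 5681 bp wide and 50.2% masked, and its longest masked block was 105 bp. Its widest peak was 5624 bp in shGFP, and 3300, 3959 and 3574 bp for shLuc replicates 1, 2 and 3. Both regions were therefore counted as repeat-dominated through many short blocks and not through a long element.

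The length of the masked block that a region touched divided the repeat-dominated regions into groups at opposite ends. The longest such block exceeded 5 kb for 4407 regions (47.6%), and was under 300 bp for 2694 (29.1%). Blocks of 300 bp to 1 kb held 1378 regions and blocks of 1 to 5 kb held 772. Blocks over 5 kb are uncommon in the genome, since they held 8.39% of the masked bases of the autosomes. Of 10166 autosomal blocks over 5 kb, 4337 (42.7%) overlapped a repeat-dominated region. The median block of the long group was 6642 bp, which is about the length of a complete mouse LINE.

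**Figure D1:**
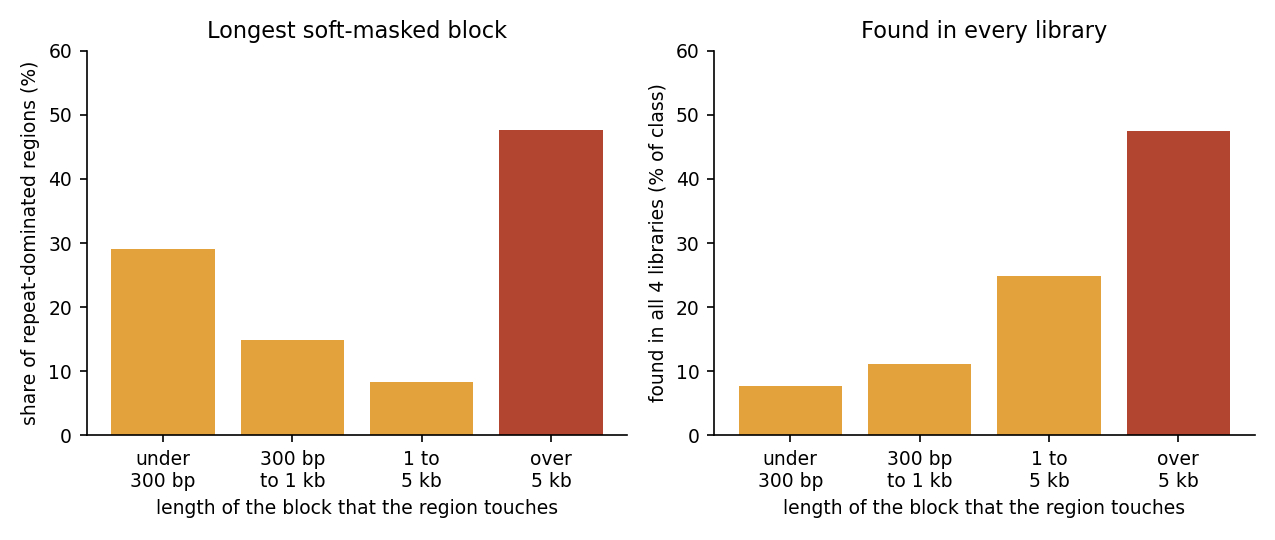
Share of the 9251 repeat-dominated regions (left, %) and share of each class found in all 4 libraries (right, %), by the length of the longest soft-masked block that the region touched. Regions on blocks over 5 kb (red) were the largest class at 47.6%, and 47.4% of them were found in every library, against 7.72% of those on blocks under 300 bp.

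Regions on long blocks sat at the end of the block. The midpoint of 4168 of the 4407 regions (94.6%) was within 1500 bp of an end of the block, with a median of 390 bp to the nearer end. The analyses along the element that follow, of primer position, word copies, their spacing and the strand of genes, were chosen after values of these regions had been seen. To place the regions along a LINE, the forward primer that the study used for LINE ORF1 was matched exactly to the blocks.
LINE-ORF1-F: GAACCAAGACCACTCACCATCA

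The capitals mark the whole primer, and 2171 regions (49.3%) lay on a block with exactly 1 match. The midpoint of 2120 of these (97.7%) was upstream of the match in the direction of ORF1, at a median of 552 bp. Of the 2171, 2018 (93.0%) lay from 1000 to 250 bp upstream. The forward primer for ORF2 gave the same order, with 97.6% of 2141 regions upstream at a median of 1769 bp. In single libraries, the share of matched regions upstream of ORF1 was 98.3% in shGFP, with 97.2%, 98.6% and 98.4% for shLuc. The median distance was 570 bp in shGFP, with 658, 567 and 602 bp for shLuc, longest in shLuc replicate 1.

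**Figure D2:**
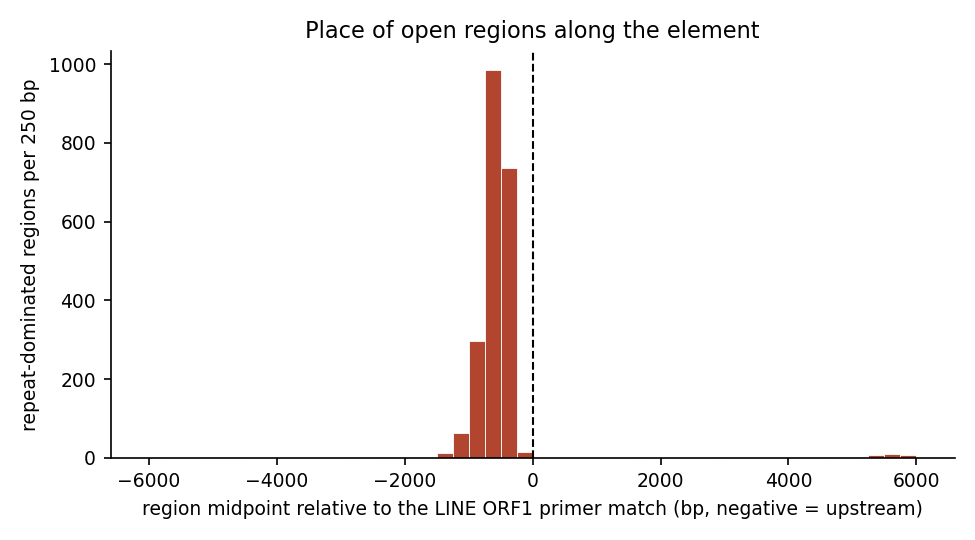
Number of repeat-dominated regions per 250 bp (vertical axis) by the position of the region midpoint relative to the only LINE ORF1 primer match on the same block (horizontal axis, bp, negative is upstream, the dashed line is the match). The plot holds 2151 of the 2171 regions, 20 lie beyond its ends, and the peak of the distribution lies just upstream of the match.

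Word 1 and word 2 were parts of head-to-tail arrays. A region with word 1 held up to 23 copies, all 2247 pairs of neighbouring copies pointed the same way, and 1997 pairs (88.9%) were exactly 212 bp apart. Word 2 reached 31 copies in a region, all 1840 neighbouring pairs pointed the same way, and 1483 (80.6%) were 208 bp apart. Word 2 had been chosen to share no region with word 1, so the absence of regions with both words is no finding. Of all autosomal blocks over 5 kb, open or not, 7 held both words. In all 1289 regions with word 1 and a single ORF1 match, word 1 pointed in the direction of ORF1. Word 2 rarely met this primer, since only 11 regions held both, and in 4 of these 11 it pointed in the direction of ORF1. The position along ORF1 above therefore describes mainly the regions with word 1 and those with neither word. Together the 2 words were present in 2628 regions and in 57.5% of those on long blocks.

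Long blocks with either word were open more often than the other long blocks. Of 1596 autosomal blocks over 5 kb that held word 1, 1378 (86.3%) overlapped a repeat-dominated region, and of 1465 with word 2, 1184 did (80.8%). Of the 7112 blocks with neither word, 1782 did (25.1%). Because the words were chosen for being common in open regions, these shares are a description of where the open copies lay.

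Regions with more copies of a word were found more often in every library. Copies were counted inside the merged region, which is wider where more libraries have a peak, so part of this relation is built into the count. Of the 358 regions with 1 copy of word 1, 81.0% had a peak in shGFP and 31%, 86.3% and 56.4% in shLuc replicates 1, 2 and 3. With 2 copies these shares were 97.6% in shGFP, and 52.2%, 96.8% and 78.0% for shLuc replicates 1, 2 and 3. With 4 or more copies, in 311 regions, they were 100% in shGFP and 99.7%, 100% and 99.7%, so that the gap between the shortest list and the others closed. The median width of the merged region was 672 bp with 1 copy and 1381 bp with 4 or more. For word 2, counted in the same way, the share of regions found in all 4 libraries went from 24.4% with 1 copy to 44.4%, 78.2% and 99.1% with 2, 3 and 4 or more. The copies in the whole block do not depend on where the peaks are, and were therefore counted as well. Of 432 blocks over 5 kb with 1 copy of word 1, a repeat-dominated region with a peak in shGFP lay on 52.3%, with 20.8%, 56.9% and 37.7% for shLuc. Of 340 blocks with 4 or more copies it was 97.4% in shGFP, with 96.2%, 97.6% and 96.8% for shLuc. For word 2, the share at 664 blocks with 1 copy was 49.7% in shGFP and lowest, at 19.1%, in shLuc replicate 1, and it was 97.2% in each library at 214 blocks with 4 or more. These blocks were also longer, with a median of 6435 bp at 1 copy of word 1 and 7273 bp at 4 or more. Reads that fitted several copies equally well were placed at 1 of them at random before peaks were called, and how far this adds to detection of arrays was not tested.

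**Figure D3:**
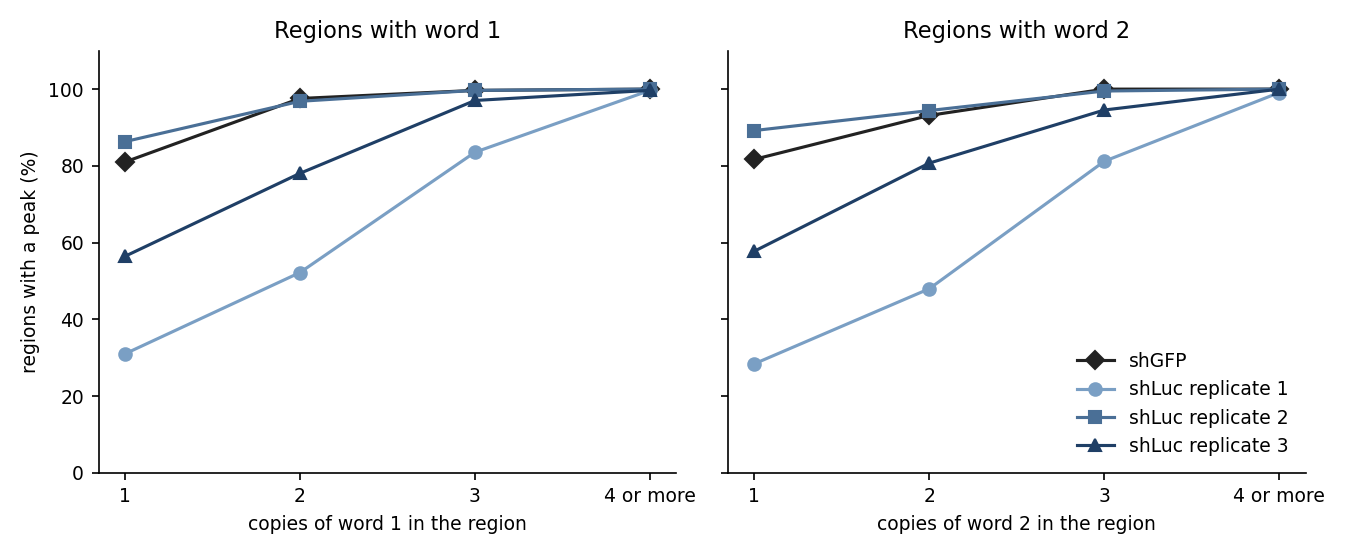
Share of regions with a peak (vertical axis, %) in each of the 4 libraries by the number of copies of word 1 (left) or word 2 (right) in the region. All libraries reach at least 99.1% at 4 or more copies, while shLuc replicate 1 has a peak at 31% of regions with 1 copy of word 1 and at 28.4% of those with 1 copy of word 2.

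Motif letters differed sharply between the regions on long blocks and the rest. Exact matches on both strands were sought in the central 200 bases of each region for 10 short motifs, some of which can overlap each other. The YY1 letters AAGATGGCG were found in 1963 repeat-dominated regions (21.2%) and in 46 mostly unique regions (0.185%), against 5.89% of all regions away from starts. YY1 is a zinc-finger factor that binds many promoters and is known to act on LINE promoters. In single libraries the repeat-dominated share was 23.9% in shGFP, with 34.2%, 24.1% and 26.1% for shLuc, while the mostly unique share was at most 0.279%. On long blocks 1828 regions (41.5%) held the letters, and on shorter blocks 135 (2.79%).

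In the array of word 1 the YY1 letters had a fixed place. Over their whole width, 1382 of the 1383 regions with word 1 held the letters, and 1309 held them at least 2 times. They began exactly 29 bases before word 1 at 3112 of its 3630 copies (85.7%), always on the opposite strand, as in the chromosome 8 stretch above. Regions with word 2 nearly lacked them, with 3 of 1245. Long-block regions with neither word held the letters in 55.4% of 1874 cases. Presence of the letters is a match of bases and says nothing about binding of YY1 in these cells.

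Most other motifs were rarer in repeat-dominated regions than in mostly unique ones, and they were rarest on long blocks. The CTCF letters AGGGGGCGC, from the site of the insulator protein CTCF, were in 0.0973% of repeat-dominated and in 1.07% of mostly unique regions. For the site of the KLF factors of the pluripotency network, GGGTGTGG, the shares were 1.15% and 2.81%. The SOX letters CATTGTT, bound by SOX2 and its relatives, were in 1.77% and 3.82%. TTCCNGGAA, the site through which STAT3 passes on the LIF signal, was in 0.259% and 0.946%. The octamer ATGCAAAT, bound by POU5F1, went the other way over all regions, with 3.25% and 2.66%. It was in 5.57% of repeat-dominated regions on blocks of up to 5 kb and in 0.703% of those on long blocks. In single libraries, however, its share in repeat-dominated regions was from 1.42% to 2.82% and its share in mostly unique regions from 2.03% to 3.05%, lower in the repeat-dominated regions in all 4. The background over all regions away from starts was 2.82% for the octamer, 3.26% for SOX, 2.36% for KLF, 0.760% for STAT and 0.804% for CTCF. On long blocks KLF was in 0.0227% and SOX in 0.431% of regions. On shorter blocks they were in 2.17% and 2.99%, nearer to their mostly unique shares. CTCF and STAT, with 0.145% and 0.434% on shorter blocks, stayed further below theirs. ESRRB (TCAAGGTCA), NR5A2 (TCAAGGCCA), NRF1 (GCGCATGCG) and a REST half-site (TTCAGCACC) were each in at most 0.281% of repeat-dominated regions, against backgrounds of 0.551%, 0.478%, 0.135% and 0.317%. In the same order they were in 0.495%, 0.537%, 0.165% and 0.248% of regions on shorter blocks. In mostly unique regions they were in 0.660%, 0.551%, 0.149% and 0.386%.

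The study's primers named for other TEs also met repeat-dominated regions, in smaller numbers. Of 52 primers, these 3 are shown because most or many of their autosomal matches fell inside repeat-dominated regions. Some primers with fewer matches did so too. The capitals mark the whole primer.
L1Md_T#1-R: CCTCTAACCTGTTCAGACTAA
RLTR13G-RT-F: TTCCCTTGTTTGGGTGAGA
RLTR13D6#2-R: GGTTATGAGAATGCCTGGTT

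L1Md_T#1-R, named for a LINE type, matched 1834 autosomal sites, of which 1305 lay in 703 repeat-dominated regions and 49.8% of these regions were found in all 4 libraries. RLTR13G-RT-F, named for an LTR, matched 145 sites, of which 102 lay in as many repeat-dominated regions, with 14.7% in all 4 libraries. RLTR13D6#2-R matched 42 sites, of which 21 lay in repeat-dominated regions. The primers for the gag gene of MERVL, the retrovirus of the 2-cell embryo, matched 628 and 593 sites, and none lay in a repeat-dominated or mostly unique region. LINE-ORF2-F matched 4208 sites without a single one in such a region, and L1Md_F24-RT-F matched 16457 with 10 in repeat-dominated regions. Its partner L1Md_F24-RT-R matched 16406 sites with 94 in such regions, and ERVB7_1-LTR_MM-RT-1-R, named for an LTR, matched 689 with 73. Each primer marks 1 short stretch of an element, so these counts do not tell whether the rest of a copy was open. IAPEZ-int#1-F, for a class of retrovirus that ESCs silence, matched 2613 sites with 6 in repeat-dominated regions. The primers named for the LTR IAPEY4 went the other way at few sites. IAPEY4_LTR-RT-F had 11 of 27 autosomal matches in repeat-dominated regions and IAPEY4_LTR-RT-R had 7 of 15.

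Next, repeat-dominated and mostly unique regions were compared in the features that the rule did not use. Mean GC content was 52.8% in repeat-dominated and 49.3% in mostly unique regions. In single libraries the difference was 4.07 percentage points in shGFP, whereas shLuc replicates 1, 2 and 3 gave 4.19, 4.31 and 4.58 (shLuc mean 4.36 ± 0.197, SD, n = 3), above the SD in every library. The masked bases themselves had a mean GC content per region of 53.2% in repeat-dominated and 46.05% in mostly unique regions. Both classes lay above the 39.8% of all masked bases of the autosomes, which is a pooled value. The ratio of observed to expected CpG, the dinucleotide that DNA methylation depletes, had a median of 0.411 in repeat-dominated and 0.221 in mostly unique regions. It was 0.442 in shGFP, and 0.514, 0.447 and 0.463 for shLuc replicates 1, 2 and 3 for repeat-dominated regions, and at most 0.300 in any library for mostly unique ones. By block length, the union median was 0.519 on blocks over 5 kb and 0.186 on blocks up to 5 kb, below that of mostly unique regions. Among the latter blocks, those of 1 to 5 kb had 0.420.

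The higher GC content belonged mainly to the long blocks. Regions on blocks over 5 kb had a mean GC content of 58.8% and those on shorter blocks of 47.4%, below the 49.3% of mostly unique regions. In shGFP the 3 values were 59.0%, 47.3% and 49.3%. In the shLuc libraries long-block regions ranged from 59.1% to 59.3%, regions on shorter blocks from 47.2% to 49.3%, and mostly unique regions from 49.3% to 52.5%. In each library the long-block regions had the highest and the regions on shorter blocks the lowest value. The shorter blocks were not alike over the union. The 772 regions on blocks of 1 to 5 kb had 52.6%, above the mostly unique value. Those on blocks of 300 bp to 1 kb had 46.8%, and those on blocks under 300 bp had 46.2%. In a comparison added after the data had been seen, without the long-block regions, the difference from mostly unique regions was −2.0 percentage points, and with regions limited to under 50% of repeated words it was −2.31.

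**Figure D4:**
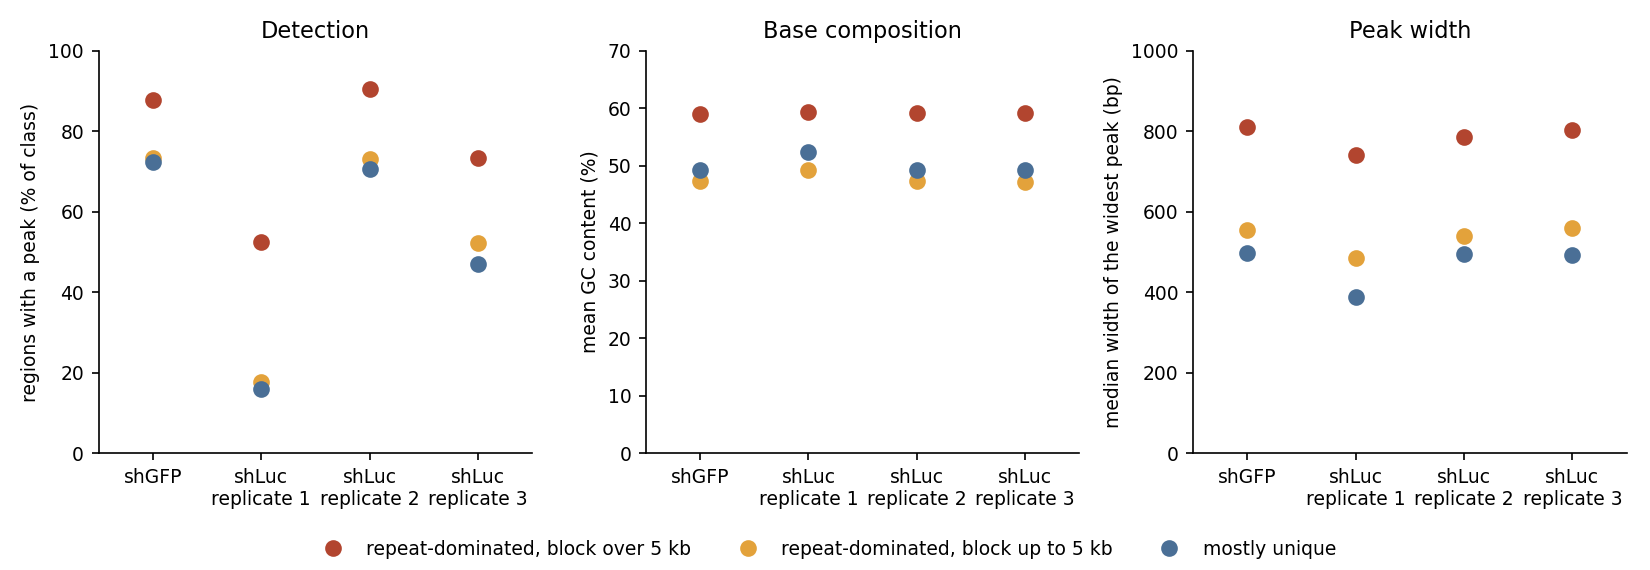
Share of regions with a peak (left, % of the class), mean GC content (middle, %) and median width of the widest peak at a region (right, bp) in each of the 4 libraries, for 4407 repeat-dominated regions on blocks over 5 kb, 4844 on blocks up to 5 kb and 24843 mostly unique regions. Points are single libraries, and in each of them the long-block regions are the most often detected, the richest in GC and the widest.

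Repeat-dominated regions were wider. The median width of the merged region was 717 bp, against 529 bp for mostly unique regions, and the widest reached 10469 bp against 2983 bp. A merged region grows with the number of libraries in it, so the width of the peaks of each library was compared as well. The median of the widest peak at a repeat-dominated region was 694 bp in shGFP and 678, 673 and 691 bp for shLuc (shLuc mean 681 ± 9.29, SD, n = 3). At mostly unique regions it was 497 bp in shGFP, with 388, 494 and 492 bp for shLuc. The peak of a long-block region had a median of 811 bp in shGFP and of 740 to 803 bp in shLuc, and that of regions on shorter blocks of 554 bp in shGFP and of 485 to 559 bp in shLuc.

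Repeat-dominated regions lay between genes more often. Of them, 68.1% were intergenic, 30.6% lay in introns and 1.36% touched an exon, and of mostly unique regions 46.7%, 41.9% and 11.4%. The intronic share of repeat-dominated regions was 29.8% in shGFP, and 31.4%, 29.9% and 29.4% for shLuc replicates 1, 2 and 3, and that of mostly unique regions 41.1% in shGFP and 37.0%, 40.9% and 41.1%. The difference was −11.4 percentage points in shGFP, whereas shLuc replicates 1, 2 and 3 gave −5.58, −11.1 and −11.7 (shLuc mean −9.46 ± 3.38, SD, n = 3), smallest in shLuc replicate 1 and larger than the SD in all 4. Long-block regions and regions on shorter blocks hardly differed here, with 29.9% and 31.2% in introns.

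The median distance to the nearest start was 21205 bp for repeat-dominated and 12203 bp for mostly unique regions. In single libraries it was 22612 bp in shGFP and 24515, 22882 and 23249 bp in shLuc for repeat-dominated regions, and from 9954 to 12432 bp for mostly unique regions, so the classes did not overlap. More than 100 kb from any start lay 11.4% of repeat-dominated and 3.49% of mostly unique regions. Long-block regions were the farthest, with a median of 30872 bp, and those on shorter blocks lay at 14810 bp. Repeat-dominated regions numbered 3.86 per Mb of known sequence over the autosomes, from 2.85 on chromosome 19 to 4.69 on chromosome 3.

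Among the 658 intronic regions with an ORF1 match and with genes on a single strand around them, ORF1 ran against the gene in 382 (58.1%) and along it in 276. The share against the gene was 58.6% in shGFP, with 58.5%, 58.4% and 59.2% for shLuc, and the libraries had many of these regions in common. Intronic blocks with an ORF1 match but no open region were not compared. Whether this strand bias is particular to open regions was therefore not tested. The genes whose introns held most repeat-dominated regions were long. Naaladl2, a gene of 1346 kb on chromosome 3, held 11 of them, 8 on long blocks. Cntnap2, which encodes a neuronal adhesion protein and spans 2245 kb, held 10. Pcdh15, which encodes a protocadherin of the inner ear, and A830018L16Rik held 9 each, and Agbl4, Cdh12, Gpc5 and Itgbl1 were among the genes with 8. The 8 regions of Itgbl1 lay within 316 kb, all on long blocks, and 5 of them were found in all 4 libraries. Cntnap2 also held 14 mostly unique intronic regions and Itgbl1 none. Per 100 kb of gene, Naaladl2 held 0.817, Cntnap2 0.445 and Itgbl1 2.53 repeat-dominated regions, where the autosomes held 3.86 per Mb.

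Genes of the pluripotency network had few repeat-dominated regions around them, and so had the silencing and lineage genes. Within 50 kb of 20 pluripotency genes there were 6, each near a different gene (Klf5, Zfp42, Tfcp2l1, Dppa4, Dppa5a and Lin28a), and none was found in all 4 libraries. The same windows held 64 mostly unique regions, so that 8.57% of regions were repeat-dominated, against 27.1% over all regions away from starts. Within 50 kb of 20 genes of TE silencing and of the study's targets there were 8, or 11.6%. Rnf2, a polycomb ubiquitin ligase, had 3, the most of that list, of which 1 was found in all 4 libraries, and Setdb1, the H3K9 methyltransferase that silences retroviruses, had 2. Around 9 genes of the 2-cell stage there were 7 repeat-dominated and 7 mostly unique regions, with 2 at Zfp352 and 2 at Gm12794. Of 10 lineage genes only Cdx2, a trophectoderm factor, had a repeat-dominated region in its window, or 5.26% of the regions around these genes. The lists are short, and their shares are counts of regions without a test. The 27.1% also covers regions far from genes, and windows around other genes were not counted. A low share is thus not shown to be particular to pluripotency genes.

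Repeat-dominated regions were found in more libraries. Of the 9251 regions, 2645 (28.6%) were open in each of the 4 libraries and 2438 (26.4%) in a single library, and of mostly unique regions 9.27% and 39.3%. In single libraries, 80.3% of repeat-dominated and 72.4% of mostly unique regions had a peak in shGFP. In shLuc replicates 1, 2 and 3 a peak was found at 34.3%, 81.4% and 62.3% of repeat-dominated regions, and at 15.9%, 70.7% and 47.1% of mostly unique regions. The difference was 7.84 percentage points in shGFP. For shLuc it averaged 14.8 ± 3.84 (SD, n = 3) and was largest, at 18.4, in shLuc replicate 1, whose list was the shortest. Long-block regions were found in 87.7% of cases in shGFP and in 52.6%, 90.4% and 73.4% in shLuc. Regions on shorter blocks were found in 73.5% in shGFP and in 17.6%, 73.1% and 52.3%, and so nearer to the mostly unique than to the long-block regions in each library.

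Width and the number of libraries went together. Among regions of 300 to under 600 bp, 3.69% of repeat-dominated and 3.71% of mostly unique regions were found in all 4 libraries, so that no difference was seen at this width. At 600 to under 900 bp the shares were 24.8% and 15.2%, and at 900 to under 1200 bp they were 56.9% and 24.7%. In the last class 73.2% of long-block regions and 27.4% of regions on shorter blocks were found in all 4 libraries. Regions on shorter blocks thus lay within 3 percentage points of the mostly unique regions of the same width in all 4 width classes, while long-block regions exceeded them from 600 bp upwards.

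**Figure D5:**
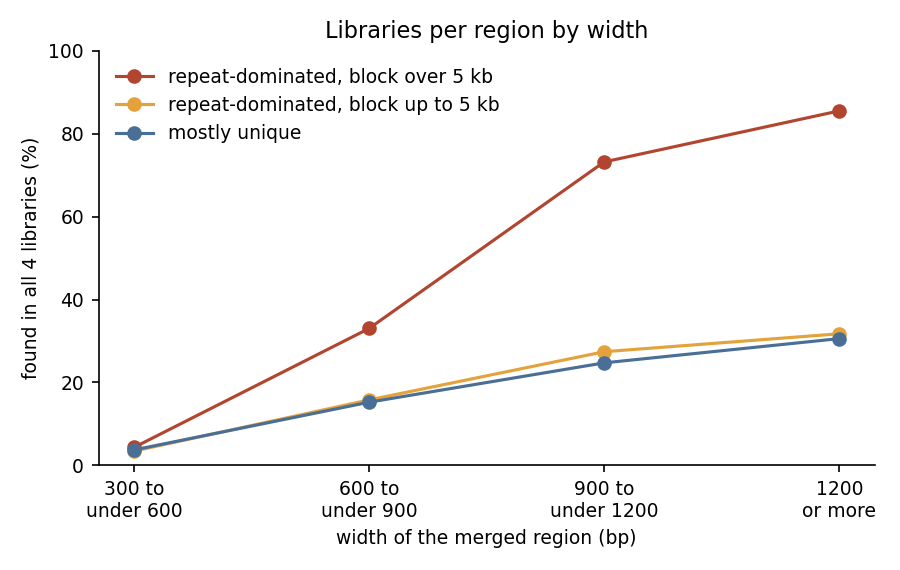
Share of regions found in all 4 libraries (vertical axis, %) by the width of the merged region (horizontal axis, 4 classes in bp) for long-block repeat-dominated regions, repeat-dominated regions on blocks up to 5 kb and mostly unique regions. The long-block line rises to 85.5% at 1200 bp or more, where the others are at 31.7% and 30.6%.

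Repeat-dominated regions differed widely in how unique their sequence was. At least 50% of the 50-base words were repeated in 58.4% of repeat-dominated and in 2.49% of mostly unique regions, and in 94.4% of long-block regions against 25.5% of those on shorter blocks. The median word of a long-block region occurred 700 times in the genome. Of all repeat-dominated regions, 7942 (85.9%) shared at least 1 word of 50 bases with another of them. On the other side, 6.36% had no repeated word at all. Simple tandem repeats of units of up to 6 bases made up 0.380% of the bases of repeat-dominated and 0.314% of those of mostly unique regions.

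The share of repeat-dominated regions among all regions away from starts was 29.2% in shGFP, compared with 44.5%, 30.0% and 33.0% for shLuc (shLuc mean 35.9 ± 7.67, SD, n = 3). The difference between the hairpins, −6.64 percentage points, was smaller than the SD, and shGFP lay close to shLuc replicate 2, the library with the most similar number of peaks. When each list was cut to as many of its widest peaks as the shortest list held, the difference was 1.66. Regions with a peak in shGFP alone numbered 914 (9.88% of repeat-dominated regions), against 11.7% of all autosomal regions. Regions with a peak in all 3 shLuc libraries and none in shGFP numbered 36 (0.389%), against 0.343% of all autosomal regions. Of all regions away from starts, 14.8% and 0.302% had these patterns. The share in shGFP alone was thus below both backgrounds. It was 4.81% on long blocks and 14.5% on shorter blocks, and 16.6% among mostly unique regions. The share in shLuc but not shGFP was near both backgrounds. A peak in shLuc replicate 2 alone was found at 1077 repeat-dominated regions, more than in shGFP alone. For some measures the single shGFP library differed from the shLuc mean by more than the SD. For repeat-dominated minus mostly unique, shGFP minus the shLuc mean was −6.93 percentage points in detection (SD 3.84) and −0.289 in GC content (SD 0.197). The detection difference rose as lists became shorter, with 7.84 in shGFP and 10.7, 15.2 and 18.4 in shLuc replicates 2, 3 and 1. Hairpin and list length cannot be told apart here. The median peak at repeat-dominated regions was 13.3 bp wider in shGFP (SD 9.29). The class differences in intronic share, merged width, distance and share found in all libraries differed by less than the SD.

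The widest repeat-dominated regions differed in how much of them a single peak covered. The widest of all spanned 10469 bp in intergenic sequence at chr8:20696404-20706872, with 1 or 2 peaks per library and a widest peak of 5435 bp in shGFP and 5376, 4775 and 6307 bp in shLuc. The next, at chr3:6297519-6307538, was covered almost whole in each library, by a peak of 10020 bp in shGFP and of 9814, 9906 and 9866 bp in shLuc. It was 62.4% GC and its median word occurred 1062 times. The third, at chr6:65297616-65306095, had peaks of 8150 bp in shGFP and 7798, 8480 and 6388 bp in shLuc, and a GC content of 42.9%. The widest in introns lay in Pfkp, which encodes a phosphofructokinase of glycolysis, in Sik3, a salt-inducible kinase gene, and in Filip1. The Pfkp region had peaks of 6783 bp in shGFP and of 6227, 1488 and 4020 bp in shLuc, so that shLuc replicate 2 covered the least of it. In Sik3 the peaks were 5402, 5402, 5444 and 5444 bp in the same order, and in Filip1 from 4255 to 4399 bp.

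The widest regions seen in shGFP alone were single peaks of 6298, 2222 and 2000 bp between genes, and the nearest starts, of Khdrbs2, Gm48491 and Srfbp1, were 207730, 24420 and 9966 bp away. The widest seen in the 3 shLuc libraries and not in shGFP lay at chr10:103631754-103635855, with peaks of 4102, 3768 and 3650 bp, at chr1:190300417-190303774, with 3358, 1552 and 2816 bp, and at chr5:77628713-77631975, with 2976, 2406 and 3263 bp. At the 50% threshold, the 3 regions just inside were each 50.0% masked and were found in 1 or 2 libraries. The 3 just outside were 49.9% masked and were found in 2 or 3 libraries. Few regions lay near the threshold, with 562 from 50% to 55% and 640 from 45% to 50%, whereas 2914 regions were masked throughout and 4211 had no masked base.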

How the data were processed

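The data were 4 ATAC-seq peak lists, 1 for shGFP and 3 for shLuc. The authors deposited each list as positions only (chromosome, start and end), with no score, count or signal. Bowtie2, MACS2, bcl2fastq and mm10 are named in the submitters' processing notes, without versions; peak caller settings and any shift for the transposase are not given in the sources used here. Per the study's methods, 1 of several equally good alignments was kept at random, which bears on which copy of a repeat receives a peak. Starts in the lists were read as counted from 0, and coordinates are given from 1. All 132789 peaks ended within the GRCm38 chromosomes, whose coordinates are those of mm10, and starts came from 141730 GENCODE vM21 transcripts. A region was exonic, intronic or intergenic by any overlap, in that order, and its distance to a start ran from its nearer edge. Words of 50 bases were counted on both strands of 21 chromosomes. Python 3.11.15, numpy 2.4.6, pandas 2.3.3, numba 0.67.0 and matplotlib 3.10.9 were used. The functions were tested on simulated data, where 60 of 60 masked shares and 24060 of 24060 word counts were right. Pairs of lists had 3 to 40 peaks with identical ends, so no library was counted as a duplicate. The lists hold no read counts, so no interval was computed, and regions were not treated as replicates. The regions named were the 3 widest in all 4 libraries in introns and between genes, the 3 widest in shGFP alone or in shLuc alone, and 3 on each side of the threshold; genes were the 5 with most intronic regions (ties at 8) and those with most regions within 50 kb in each list, and other names were chosen after values were seen. The regions, gene lists and motifs were chosen with earlier results of these data known. The alternatives were other masking and start thresholds, merging, chromosomes, list lengths, widths and word lengths, and leaving out shLuc libraries.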

Additional observations from a re-analysis of the deposited data

How the results depend on the processing

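Of 133 values recomputed for 9 results under 17 alternatives, 94 moved by less than the SD over the shLuc libraries, or by less than 1.5 times for the count of regions, 36 moved by more and 3 changed sign from a difference above the SD. In all, 5 values changed sign. The others were of the hairpin difference in the share of repeat-dominated regions, itself smaller than its SD. It was 1.66 percentage points with lists of equal length and 0.254 with regions 300 to 600 bp wide. The cause was not tested except where an alternative's construction gives it. The intronic difference kept its sign in all 15 alternatives, from −12.4 to −8.76 percentage points. The GC difference turned to −2.31 percentage points with regions in which under 50% of words are repeated, and to −2.0 without regions on blocks over 5 kb, an alternative chosen after seeing the data. The difference in the share found in all libraries was 0 within rounding (−0.00354 percentage points) for regions 300 to 600 bp wide.

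With a masking threshold of 30%, the share of repeat-dominated regions was 36.6%, and the differences were 1.52 percentage points for GC, 5551 bp for distance, 13.9 points for all libraries and 41.8 points for repeated words. At 70% they were 5.47, 12304 bp, 24.9 and 70.4. The GC difference was 3.05 points with masking read over the central 200 bases, 4.33 with no start within 5 kb, 3.17 with protein-coding starts only and 3.77 with all 21 chromosomes. The distance difference was 48966 bp with protein-coding starts only. Lists of equal length gave 5227 regions, a share of 37.7%, 12200 bp, 29.3 points for all libraries, 65.3 for words, and a difference between the hairpins of 1.66 points, against −6.64 with the full lists. Regions with under 50% of repeated words numbered 3853, a share of 13.7%, with differences of 50 bp in width, 2505 bp in distance and 1.49 points for all libraries. Of regions 300 to 600 bp wide, 2854 were repeat-dominated, a share of 18.9%, and the differences were 2.10 points for GC, 5158 bp for distance and 42.2 points for words. Words of 100 bases gave 41.5 points. Without blocks over 5 kb, the differences were 42 bp in width, 2.17 points for all libraries, 2607 bp in distance and 23.0 points for words. Leaving out 1 shLuc library at a time gave GC differences of 3.62 to 3.67 points and moved no other result past the SD. The hairpin difference in the share was then −9.48 to −2.30 points, nearest to 0 without shLuc replicate 1. In that case it exceeded the SD of the remaining shLuc libraries, 2.12.

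No paired analysis was possible because shGFP had a single library and no result came from a test. How sequencing depth bears on the number of libraries was not tested, and the lists themselves hold no read counts. shLuc replicate 1, with the shortest list, had a peak at 34.3% of repeat-dominated regions, which is the upper limit of the share found in all 4 libraries. Repeat types were not assigned, since no table of them was used here.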

Other observations

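The sex chromosomes were left out of the comparisons above. On the X chromosome, 805 of 1339 open regions away from starts (60.1%) were repeat-dominated, against 27.1% on the autosomes. Of these 805, 65.7% touched a block over 5 kb, their mean GC content was 55.6%, their median width 785 bp, and 31.7% were found in all 4 libraries. On the Y chromosome 106 of 112 regions (94.6%) were repeat-dominated, all 106 had at least 50% of their words repeated, and 30.2% were found in all 4 libraries. Per Mb of known sequence there were 4.92 repeat-dominated regions on the X and 1.20 on the Y, where the autosomes ranged from 2.85 to 4.69.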
